A study of Mus musculus with 8 samples.

Results

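The genes described here are the core of JAK-STAT signaling and its feedback in SOL muscle. They are Cish, Socs2 and Socs3 (feedback inhibitors), Stat3, Stat5a and Stat5b (transcription factors), Jak2 (a kinase), and Ghr, Il6st and Il6ra (receptor chains). These 10 genes were looked up by symbol among the 24054 rows of the deposited table, and all 10 were found. They were selected on measured values of these same mice, above all the high value of Cish in 1 MI4KO mouse, so their levels and differences are given as a description and carry no test. SOL (soleus) RNA was sequenced from 4 MI4KO mice and 4 flox mice, all male, of the C57BL/6 strain and, per the sample labels, on a high fat diet, and their age is not stated. MI4KO mice carry floxed Irf4 alleles and Myl1-Cre, a Cre recombinase expressed from the skeletal muscle gene Myl1. The flox mice carry the floxed alleles without Cre. Myl1-Cre acts in muscle fibers, so the other cells of the muscle keep Irf4, and the RNA of whole muscle holds both. Mice are called 1 to 4 within a group, following the animal numbers in their labels.

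Cytokines and growth hormone act on receptors that have no kinase of their own. Binding brings JAK kinases together on the receptor, the kinases phosphorylate it and the STAT proteins that dock there, and paired STATs enter the nucleus and switch on genes. Among those genes are Cish and the Socs genes, whose proteins bind receptor or kinase and close the loop. In muscle, growth hormone acts mainly through Jak2 and Stat5b, and interleukin 6 and its relatives act through the shared receptor chain gp130 and Stat3.

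The values are TMM-normalized CPM, that is, read counts scaled to a common library size. Whole reads could be recovered from them, from 13417512 to 16384565 per mouse, and 3 reads correspond to a value of 0.181 to 0.225. MI4KO mouse 3 stood apart from the rest. It held the highest value of the 8 mice for 30.9% of the 11865 genes tested, against 3.68% to 15.8% for any other mouse, and the lowest value for 13.3%. Under library-size scaling it was highest for 13.2% of the genes and lowest for 25.7%. Under median-of-ratios scaling it was highest for 21.0% and lowest for 19.3%. Results that rest on this mouse are therefore given with and without it. All 12 genes of a list of glucocorticoid-responsive genes were also at their highest in it, with a sum of 3773 against 2037 to 2330 in the other mice. A list of neutrophil markers summed to 6.85 there against 1.55 to 2.36, with 5 of 6 genes highest. Its calprotectin genes S100a8 and S100a9 were at 1.60 and 1.80, on 24 and 27 reads. Only 1 of the 6 genes, Cxcr2, was among the genes tested, and it was not highest in this mouse. Irf4, the targeted gene (chr13:30749226-30766976, plus strand, GRCm38), averaged 1.35 ± 0.451 in the flox group and 0.715 ± 0.324 in the MI4KO group (SD, n = 4 each), on 4 to 23 reads per mouse. The ratio of the group means was 0.530. On log2(value + 1), a scale that understates the change of low genes, its log2 fold change was -0.45 (SE 0.20). By limma its unadjusted p was 0.040, where 3.36% of all genes were under 0.05, and its Benjamini-Hochberg adjusted p was 1.0. Without MI4KO mouse 3 the ratio was 0.641, the log2 fold change -0.31 (SE 0.19) and the unadjusted limma p 0.12. Flox mouse 1, at 0.686, lay among the MI4KO mice, and MI4KO mouse 3 had the lowest Irf4 value, 0.266.

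STAT dimers recognise the motif TTCNNNGAA, in which N is any base and which reads the same on both strands. It was searched in the RefSeq promoter windows of GRCm38.p6, from 250 bases before to 50 bases after each transcript start. Of 32851 windows, 8.30% held at least 1 match and 0.457% at least 2, and 9.55% of all genes with a window had a match. Windows were present for 9 of the 10 genes, all but Socs2, and those of Cish and Socs3 held matches. The sequences are shown because these feedback genes had the largest log2 fold changes of the 10. The matches are in capitals. The 30 bases of Cish lie around its RefSeq start (chr9:107296654-107296683, plus strand) in a 5′ exon of the GENCODE annotation. The 250 bases of Socs3 precede its RefSeq start (chr11:117969367-117969616, minus strand), inside the longer GENCODE gene and outside its exons.
Cish: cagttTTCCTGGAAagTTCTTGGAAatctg
Socs3: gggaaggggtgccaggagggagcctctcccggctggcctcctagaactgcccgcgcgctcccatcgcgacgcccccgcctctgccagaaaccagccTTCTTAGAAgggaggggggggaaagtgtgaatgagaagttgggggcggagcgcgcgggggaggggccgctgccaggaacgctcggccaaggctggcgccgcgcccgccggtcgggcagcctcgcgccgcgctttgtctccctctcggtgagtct
The first bases of the matches lie at positions 1 and 12 from the Cish start and at -154 from the Socs3 start. Among the other 73 genes of the pathway lists, 55 had a window and 7 had a match, with the same 9.55% of all genes as background. Only 0.0335% of all windows held 3 or more matches. One of them belonged to Bcl6, a STAT5-regulated transcriptional repressor singled out here after its values were seen. Its 250 bases before a RefSeq start are on chromosome 16 (chr16:23981284-23981533, minus strand), inside the gene and outside its exons.
Bcl6: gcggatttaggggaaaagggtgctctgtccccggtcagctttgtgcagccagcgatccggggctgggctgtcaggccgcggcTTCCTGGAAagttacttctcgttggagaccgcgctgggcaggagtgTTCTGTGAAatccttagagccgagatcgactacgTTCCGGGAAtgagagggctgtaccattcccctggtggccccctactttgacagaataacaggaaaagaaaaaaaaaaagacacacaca
Its matches begin at -168, -122 and -88. Bcl6 was at 45.9 to 78.8 in flox mice and 47.5 to 63.3 in MI4KO mice, and MI4KO mouse 3 had 63.1, a middling value. A match of letters is no evidence that a STAT protein bound there in these mice.

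Levels of different genes were set side by side per kb of exon, using the exons of GENCODE M21. In flox mice, Ghr was highest at 22.0 ± 1.42 (SD, n = 4) TMM-normalized CPM per kb, then Il6st at 19.7 ± 1.25, Stat5b at 17.4 ± 1.36 and Stat3 at 14.5 ± 0.849. Jak2 (6.02 ± 0.521) and Stat5a (5.54 ± 0.231) formed a middle tier. The feedback genes and Il6ra came last, with Socs2 at 1.74 ± 0.0496, Cish at 1.62 ± 1.33, Socs3 at 1.22 ± 0.162 and Il6ra at 0.629 ± 0.207. The flox ranges of Ghr and Il6st overlapped, as did those of Il6st and Stat5b, Jak2 and Stat5a, Socs2 and Cish, and Cish and Socs3. Those of Stat5b and Stat3, Stat3 and Jak2, Stat5a and Socs2, and Socs3 and Il6ra did not. With the longest transcript as length, Il6st came before Ghr and the rest of the order stayed the same. Bulk RNA cannot tell fewer cells of a type from less RNA per cell, so these levels belong to the whole muscle.

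**Figure D1:**
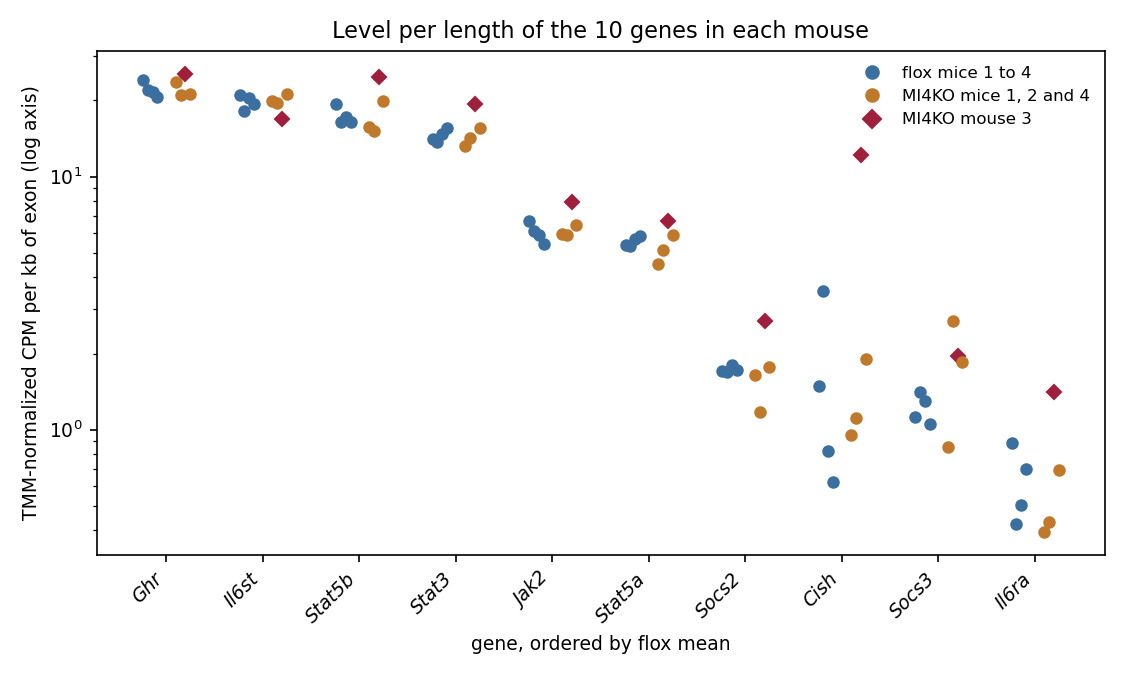
TMM-normalized CPM per kb of exon (log axis) for the 10 genes, 1 point per mouse, with flox mice in blue, MI4KO mice 1, 2 and 4 in orange and MI4KO mouse 3 as a red diamond. Ghr, Il6st, Jak2 and the STATs sit above the feedback genes in every mouse but MI4KO 3, where Cish reaches into their range, and Il6ra has the lowest flox mean.

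Cish encodes CIS, an inhibitor that STAT5 induces and that binds growth hormone and related receptors (chr9:107296026-107302784, plus strand). Its value was 5.42, 12.9, 3.0 and 2.26 in flox mice 1 to 4 and 3.48, 4.07, 44.5 and 6.95 in MI4KO mice 1 to 4. Thus 1 mouse, MI4KO 3, was far above all others, and the other MI4KO mice lay inside the flox range, which was itself wide. In MI4KO mouse 3, 669 reads gave a value with a 95% exact Poisson interval of 41.2 to 48.0, and in flox mouse 2, the next highest, 186 reads gave 11.1 to 14.9. These intervals cover counting error only. The mouse was 10.9-fold above the median of the other 7. The group means were 5.90 ± 4.86 (SD, n = 4) for flox and 14.7 ± 19.9 (SD, n = 4) for MI4KO, a ratio of 2.50. Without MI4KO mouse 3 the MI4KO mean was 4.83 ± 1.86 (SD, n = 3) and the ratio 0.820, so the direction of the group difference turned on this animal.

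Socs2, which restrains growth hormone signaling (chr10:95385362-95417180, minus strand), was at 4.61, 4.58, 4.88 and 4.66 in flox mice and 4.42, 3.17, 7.25 and 4.77 in MI4KO mice. The flox mice were nearly equal, while the MI4KO mice held both the lowest and the highest value. Its highest value was again that of MI4KO mouse 3, 1.57-fold above the median of the others, with a counting interval of 5.95 to 8.74. Flox mice averaged 4.68 ± 0.134 and MI4KO mice 4.90 ± 1.71 (SD, n = 4 each), or 4.12 ± 0.845 (SD, n = 3) without that mouse. Of the 50-base stretches of Socs2 transcripts, 4.53% also occur in transcripts of other genes, so a small part of its reads could have been assigned either way.

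Socs3 blocks Jak kinases at gp130 receptors and is induced by STAT3 (chr11:117966079-117970047, minus strand). It did not follow the pattern of Cish. Its value was 2.87, 3.61, 3.30 and 2.70 in flox mice and 2.18, 6.85, 4.99 and 4.71 in MI4KO mice. In 3 of the 4 MI4KO mice it was above every flox mouse and in MI4KO mouse 1 below all of them, so the groups overlapped through 1 animal. The highest was MI4KO mouse 2, on 106 reads (interval 5.61 to 8.29), and MI4KO mouse 1 had 30 reads (1.47 to 3.11). The means were 3.12 ± 0.414 (SD, n = 4) and 4.68 ± 1.92 (SD, n = 4), a ratio of 1.5, which was 1.47 without MI4KO mouse 3. The log2 fold change was 0.40 with a standard error of 0.22, and it ranged from 0.22 without MI4KO mouse 2 to 0.65 without MI4KO mouse 1, positive each time.

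**Figure D2:**
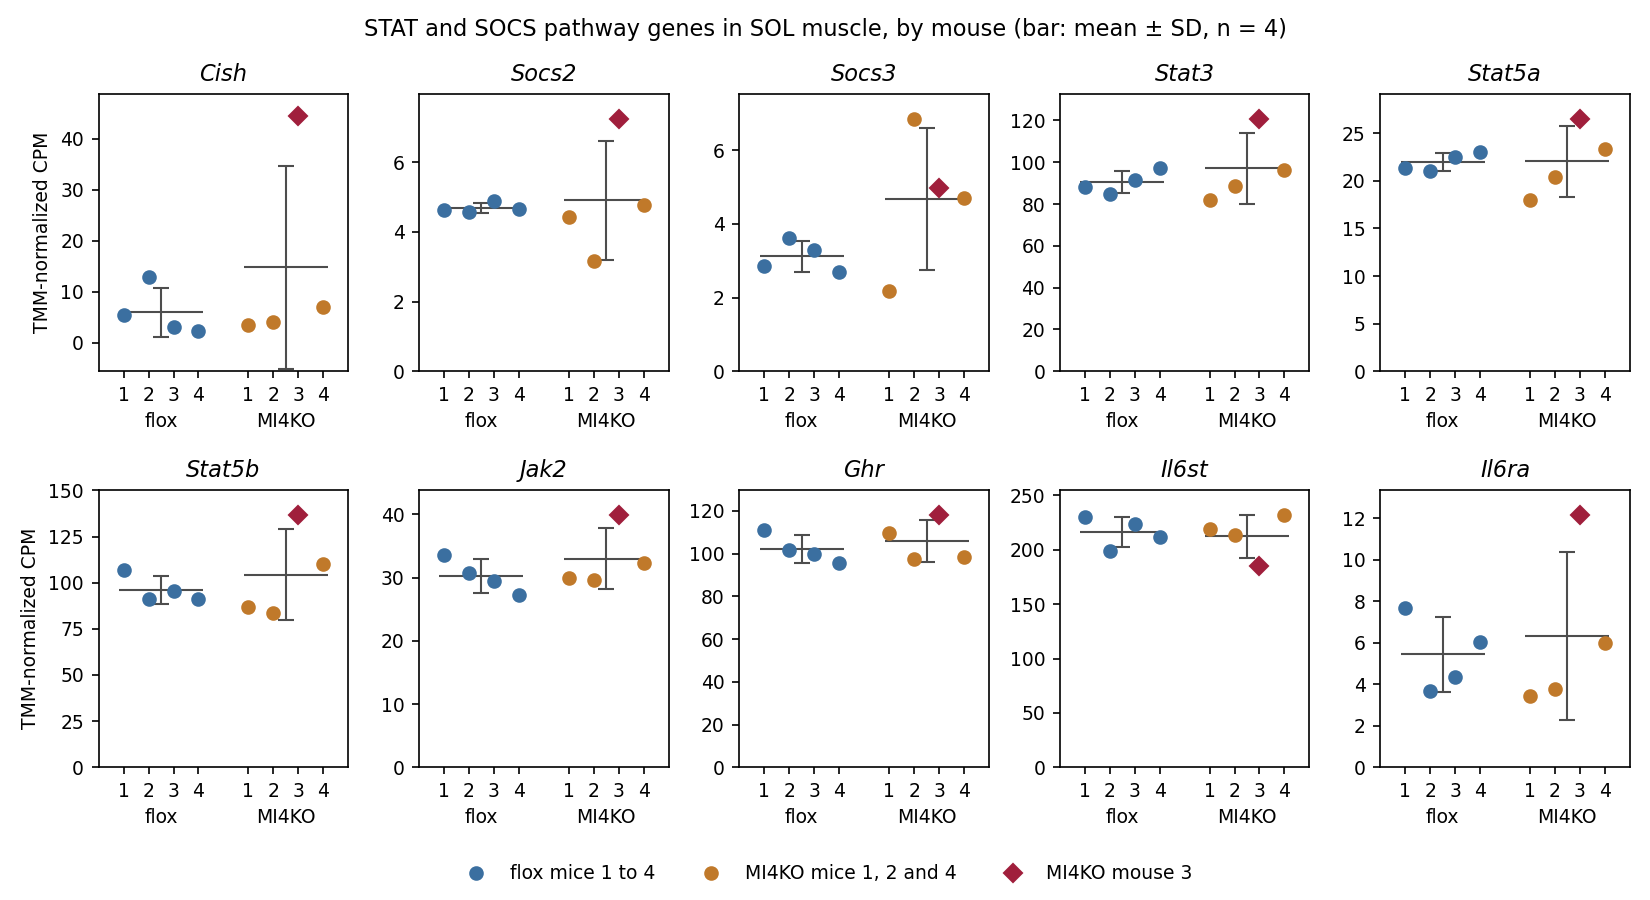
TMM-normalized CPM of the 10 genes in each mouse, with 1 panel per gene, flox mice 1 to 4 on the left and MI4KO mice 1 to 4 on the right, and a bar at the group mean ± SD (n = 4). MI4KO mouse 3 (red diamond) is the highest point in 8 panels, second in that of Socs3 and lowest in that of Il6st.

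The STAT genes varied less between mice than Cish and Socs3. The log2 SD over the 7 mice other than MI4KO 3 was 0.09 for Stat3, 0.12 for Stat5a and 0.15 for Stat5b. It was 0.70 for Cish and 0.44 for Socs3, but 0.17 for Socs2, close to that of Stat5b. Counting error is larger for Socs3, on 30 to 106 reads, than for these STAT genes, on 248 reads or more. Stat3, the main effector of gp130 (chr11:100885098-100939540, minus strand), was at 87.9, 84.9, 91.5 and 97.2 in flox mice and 82.0, 88.8, 120.8 and 96.5 in MI4KO mice. Apart from MI4KO mouse 3, the groups covered nearly the same range. Its log2 fold change was 0.09 (SE 0.11), and -0.02 (SE 0.08) without that mouse. Stat5b, the STAT5 form that growth hormone mainly uses (chr11:100780731-100850724, minus strand), was at 107.0, 91.0, 95.5 and 91.3 in flox mice and 86.6, 83.8, 136.8 and 109.9 in MI4KO mice. All 4 MI4KO mice lay outside the flox range, 2 below and 2 above it, MI4KO 3 at 1.5-fold the median of the others. Flox mice averaged 96.2 ± 7.51 and MI4KO mice 104.3 ± 24.6 (SD, n = 4 each), or 93.4 ± 14.3 (SD, n = 3) without MI4KO mouse 3. Stat5a, its close relative (chr11:100859351-100885169, plus strand), was at 21.4, 21.1, 22.5 and 23.0 in flox mice and 18.0, 20.4, 26.5 and 23.3 in MI4KO mice. The MI4KO mice again lay outside the flox range, 2 below and 2 above, and the group means were nearly equal, 22.0 ± 0.916 and 22.1 ± 3.70 (SD, n = 4 each). The log2 fold change of Stat5a, -0.01 (SE 0.11), had the opposite sign under 9 of 17 other settings, so no direction can be given.

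These STAT genes lie side by side on chromosome 11. Stat5a and Stat3 overlap by 72 bases on opposite strands, and 8626 bases separate Stat5b from Stat5a. Stat5a and Stat5b share 608 of their 50-base stretches, 8.21% of those of Stat5a and 11% of those of Stat5b. Reads from the shared stretches and from the overlap may have been split between the genes, which makes small differences between Stat5a, Stat5b and Stat3 uncertain.

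Jak2 is the kinase that the growth hormone receptor binds (chr19:29251828-29313080, plus strand). It was at 33.6, 30.7, 29.5 and 27.3 in flox mice and 29.9, 29.7, 39.95 and 32.4 in MI4KO mice. Only MI4KO mouse 3 left the flox range. The log2 fold change of 0.11 (SE 0.10) became 0.02 (SE 0.09) without it.

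The receptors differed from one another in what MI4KO mouse 3 did. Ghr, the growth hormone receptor (chr15:3317760-3583492, minus strand), was at 111.3, 101.8, 99.9 and 95.7 in flox mice and 109.8, 97.6, 118.2 and 98.3 in MI4KO mice. MI4KO mouse 3 was 1.18-fold above the median of the others, and under library-size scaling it was no longer the highest. Il6st, which encodes gp130 (chr13:112464070-112510086, plus strand), was at 230.2, 199.1, 224.0 and 212.2 in flox mice and 218.8, 213.5, 184.7 and 232.1 in MI4KO mice. Here MI4KO mouse 3 was the lowest of the 8, at 0.844 of the median of the others. Il6ra, the chain that binds interleukin 6 itself (chr3:89864059-89913196, minus strand), was at 7.67, 3.68, 4.35 and 6.05 in flox mice and 3.41, 3.75, 12.2 and 5.98 in MI4KO mice. Its value in MI4KO mouse 3 was 2.80-fold above the median of the others, with a counting interval of 10.5 to 14.1, while the other MI4KO mice, at 3.41 to 5.98, lay within or just below the flox range of 3.68 to 7.67. The log2 fold change of Il6ra was 0.08 (SE 0.30) with MI4KO mouse 3 and -0.25 (SE 0.21) without it.

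Ratios within a mouse do not depend on the scaling of its library. The level of Stat5b per kb was 3.14 ± 0.317 times that of Stat5a in flox mice and 3.37 ± 0.311 times in MI4KO mice (SD, n = 4 each), with MI4KO mouse 3 at 3.70, just above the highest other mouse at 3.59. The ratio of Il6st to Il6ra per kb was 12.0 in MI4KO mouse 3 and 23.7 to 50.5 in the other mice. This is a ratio of RNA in the whole muscle of this animal, and the receptor proteins were not measured. Cish stood at 4.54 times Socs2 in it, against 0.358 to 2.09 elsewhere, and at 6.24 times Socs3, against 0.416 to 2.50. Cish thus stood higher relative to both other feedback genes in this mouse.

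limma was run on log2(value + 1), a scale that understates the change of low genes, and it took in the 11865 genes that reached a value of 1 in 4 or more mice. The limits were an unadjusted p under 0.05 and a 1.5-fold difference in either direction. All 10 genes were among those tested, and none was past the limits in either direction. By edgeR and the same limits, the paper lists Cish among the genes changed in both SOL and GAS (gastrocnemius) muscle. Here edgeR on the recovered reads placed none of the 10 past the limits. Why the calls of Cish differ was not tested. Across all genes, limma placed 0.059% past the limits as higher in MI4KO mice and 0.16% as lower, and 399 genes, 3.36%, reached that unadjusted p. No gene, and so 0% of them, had a Benjamini-Hochberg adjusted p under 0.05 by limma, nor by edgeR or DESeq2 on the recovered reads. None of the 10 had flox and MI4KO values that did not overlap, against 2.07% of all genes. Without MI4KO mouse 3 again none of the 10 was past the limits, against 0.27% of all genes.

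The sign of the difference turned on MI4KO mouse 3 for most of the genes. With it, 8 of 10 log2 fold changes were positive, with a median of 0.09, against a median of -0.01 over all genes tested. Without it, 3 of 10 were positive, Socs3, Jak2 and Il6st, with a median of -0.03, against -0.04 over all genes. Cish, Socs2, Stat3, Stat5b, Ghr and Il6ra went from positive to negative, Il6st from negative to positive. The sign of 2 of these also depended on other settings. Il6ra was at -0.06 without flox mouse 2, and Il6st was at 0.01 under library-size scaling and at 0.00 without flox mouse 1. MI4KO mouse 3 was the highest of the 8 mice for 8 of the 10 genes, all but Socs3 and Il6st, and for 7 under library-size scaling, where 13.2% of all genes were. Cish alone of the 10 exceeded all other mice there by over 1 log2 unit, as did 0.447% of all genes. These counts describe the values that drew attention to the genes.

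**Figure D3:**
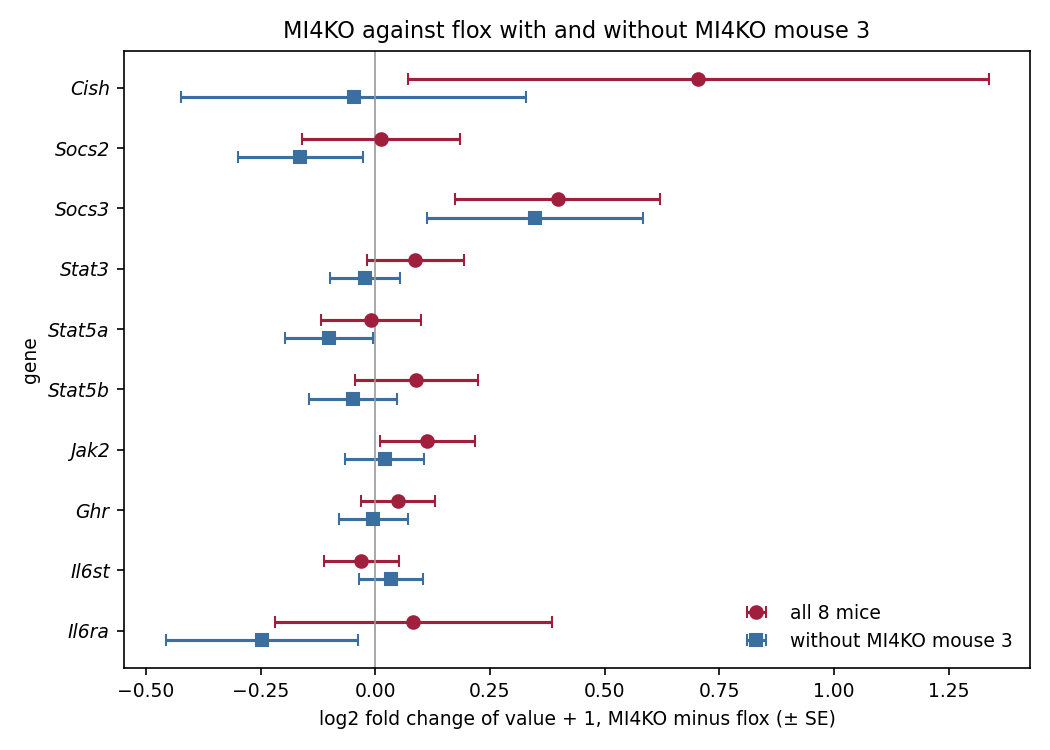
Log2 fold change of value + 1, MI4KO minus flox, with its standard error, for the 10 genes, from all 8 mice (red circles) and without MI4KO mouse 3 (blue squares). Cish moves from 0.70 to -0.05 and Il6ra from 0.08 to -0.25, while Socs3 stays at 0.40 and 0.35.

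The genes whose pattern over the 8 mice was nearest to that of Cish and Socs3 were found by the mean absolute difference of median-centred log2 values. For Cish, Selp came first at 0.38, then Icam1 and 1500012K07Rik at 0.39 each, Mt1 at 0.42 and Slc7a8 at 0.50, where the median over 11864 genes was 0.85. Selp and Icam1 encode adhesion molecules of vessel walls, Mt1 a metal-binding protein induced by glucocorticoids and cytokines, and Slc7a8 an amino acid transporter. What these share is a high value in MI4KO mouse 3. Selp was at 15.7 there and 0.363 to 1.46 elsewhere, and Mt1 was at 191 there and 17.8 to 26.3 elsewhere. For Socs3, the nearest were Gm1966 at 0.15, Icosl, Glb1l2 and Elovl6 at 0.19 each and Dact1 at 0.20, where the median was 0.36. All of these Socs3-like genes were low, with values from 0.437 to 6.79, and MI4KO mouse 1 held the lowest value of Gm1966, Icosl, Glb1l2 and Dact1 but not of Elovl6. Likeness over 8 mice of 1 table is a description only.

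**Figure D4:**
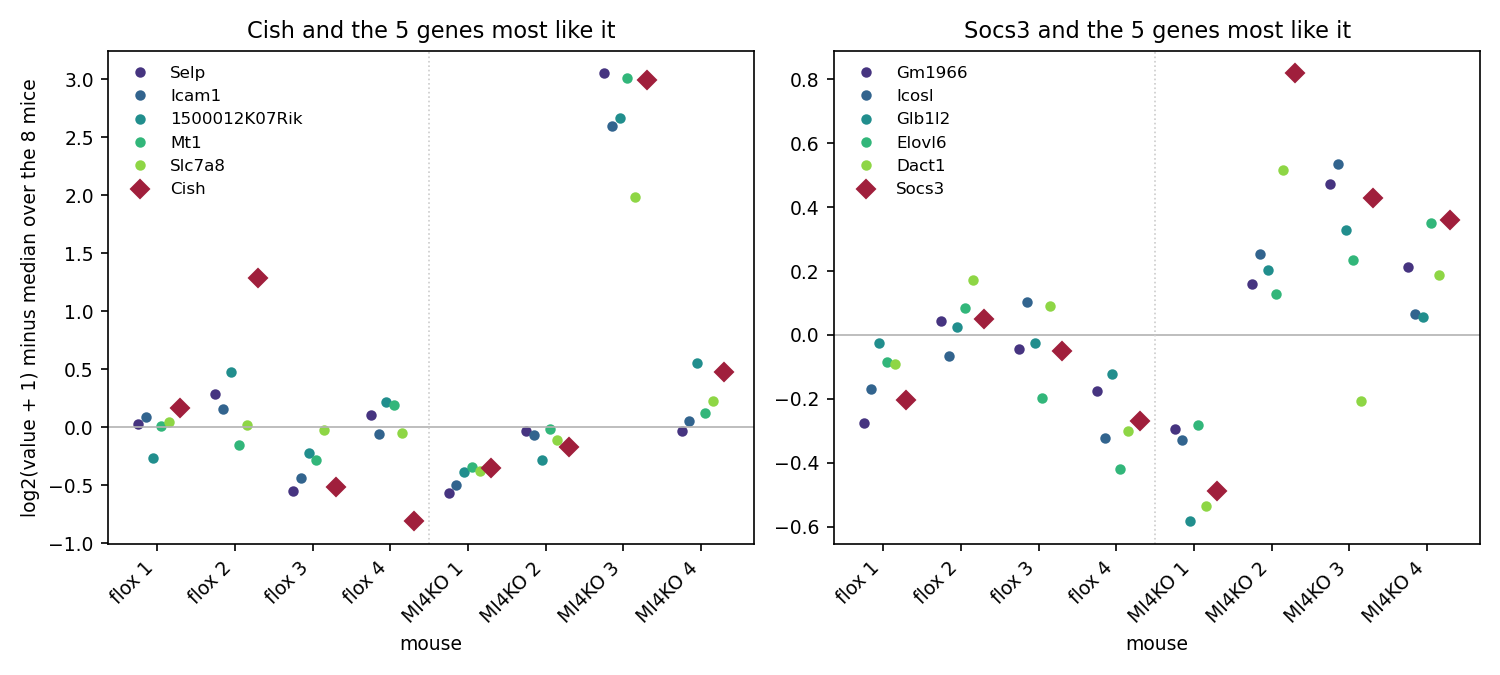
Log2(value + 1) minus the median over the 8 mice for Cish (left) and Socs3 (right) as red diamonds and for the 5 genes nearest to each as coloured circles. The Cish group separates in MI4KO mouse 3, while the Socs3 group is low in MI4KO mouse 1 and mostly higher in MI4KO mice 2, 3 and 4.

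The rest of the pathway was taken from lists of JAKs, STATs, SOCS proteins, other inhibitors, ligands, receptors and target genes, 73 genes apart from the 10. All had a row in the table and 55 passed the filter on low values. Of these 55, 0 were past the limits, limma gave 0 of them an unadjusted p under 0.05, and 0 had flox and MI4KO values that did not overlap. At that unadjusted p, edgeR picked 1 gene, Ptpn11, and DESeq2 picked 2, Ptpn11 and Cntfr, and it gave no p for Icam1. The share of all genes at that p was not counted for edgeR and DESeq2. Past the limits were 0 of the 55 by edgeR and 1 by DESeq2, against 65 and 51 of all 11865 genes. No gene had an adjusted p under 0.05 by any of these tools. Without MI4KO mouse 3, 3 of the 55 had an unadjusted p under 0.05 by limma, Il4ra at -0.30, Ifngr1 at -0.24 and Bcl2l1 at -0.45, against 5.01% of all genes. Pias4 and Ifngr1, 2 of the 55, then had values that did not overlap between the groups, against 5.25% of all genes, and none was past the limits. The median log2 fold change of the 55 genes was 0.01, and -0.07 without MI4KO mouse 3. That mouse was highest for 22 of the 55 genes, which is 40%, against 30.9% of all genes, and for 30.9% against 13.2% under library-size scaling. It was lowest for 6.

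Among the other kinases, Jak1 (log2 fold change -0.00, SE 0.08) and Tyk2 (0.01, SE 0.09) were the lowest and highest of their list. MI4KO mouse 3 was highest for 2 of these 3 kinases, Jak1 and Jak3, and also for Jak2, against 30.9% of all genes. It was at 107.5 against 106.2 in the next mouse for Jak1 and at 10.8 against 10.6 for Jak3. Under library-size scaling other mice were above it for Jak1 and Jak3 but not for Jak2, and it was highest for 13.2% of all genes. The other STATs ran from Stat2, an interferon effector, at -0.18 (SE 0.12) to Stat6, the effector of interleukin 4, at -0.05 (SE 0.12), and MI4KO mouse 3 was highest for none of the 3 tested. It was also highest for none of the 4 other SOCS genes tested, which ran from Socs5 at -0.14 (SE 0.09) to Socs4 at 0.13 (SE 0.14). Within the STAT and SOCS families it was highest for Stat3, Stat5a, Stat5b, Cish and Socs2, which are among the 10 genes selected with these values known. The other inhibitors ran from Pias3, which blocks STAT3, at -0.16 (SE 0.11) to Ptpn11, the phosphatase SHP2, at 0.17 (SE 0.08).

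Most ligands of gp130 were scarce, and Ctf1 was not. Osm was at 0 in every mouse and Il6 at no more than 0.145, under the value of 3 reads, and 5 of the 7 ligand genes did not pass the filter. Ctf1, which encodes cardiotrophin, was at 13.6 to 17.5 in flox mice and 15.1 to 15.6 in MI4KO mice, with a log2 fold change of 0.01 (SE 0.09). Cntf, ciliary neurotrophic factor, was at 0 to 2.33 in flox mice and 0.967 to 1.89 in MI4KO mice, with 0.31 (SE 0.29), and it overlaps a readthrough transcript with Zfp91, which makes its value uncertain.

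Among receptors of the gp130 family, MI4KO mouse 3 held the highest value for 3 of the other 4 genes, against 30.9% of all genes. The lowest log2 fold change of this list was that of Lifr, the leukemia inhibitory factor receptor, at 0.00 (SE 0.14). The highest was that of Cntfr, the receptor of ciliary neurotrophic factor, at 0.50 (SE 0.32). Cntfr was at 2.87, 2.84, 1.88 and 2.04 in flox mice and 2.83, 2.78, 10.2 and 2.18 in MI4KO mice. A single animal stood out and the others overlapped, and without it the log2 fold change was 0.09 (SE 0.16). Among 12 other JAK-coupled receptors, MI4KO mouse 3 was highest for 5 and lowest for 4, against 30.9% and 13.3% of all genes. They ran from Ifnar2, an interferon receptor chain, at -0.21 (SE 0.15) to Csf2rb, the common beta chain of interleukin 3, interleukin 5 and GM-CSF receptors, at 0.34 (SE 0.38). Csf2rb was at 1.31, 1.25, 1.80 and 1.97 in flox mice and 0.725, 1.62, 7.84 and 1.75 in MI4KO mice.

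For the target genes of STAT5 and growth hormone, MI4KO mouse 3 was highest for 4 of 9 and lowest for 2, Igf1 and Ccnd1. Of all genes, it was highest for 30.9% and lowest for 13.3%. Igf1 was at 2.53 in this mouse against 2.97 to 6.10 in the others. Bcl2l1, which encodes the survival protein BCL-XL, was at 32.2, 25.3, 38.0 and 43.3 in flox mice and 23.0, 23.2, 89.1 and 28.3 in MI4KO mice. Without MI4KO mouse 3 its log2 fold change was -0.45 (SE 0.15), and with it 0.01 (SE 0.34). Ccnd1, cyclin D1, had the lowest value of the list, -0.41 (SE 0.25), and was lowest in that mouse at 8.64 against 16.8 to 28.5 in the others. Pim1, a survival kinase, had the highest, 0.14 (SE 0.18).

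Among the STAT3 and acute-phase targets, MI4KO mouse 3 was highest for 8 of 12, against 30.9% of all genes. Cebpd, a transcription factor of the acute phase, was at 18.6, 11.4, 26.0 and 18.5 in flox mice and 13.6, 16.9, 56.6 and 17.1 in MI4KO mice. Bcl3, a nuclear partner of NF-kappaB, was at 1.81, 1.60, 1.05 and 0.729 in flox mice and 1.38, 1.29, 5.25 and 1.15 in MI4KO mice. Icam1, an adhesion molecule, was at 5.17, 5.48, 3.30 and 4.59 in flox mice and 3.12, 4.53, 34.1 and 5.02 in MI4KO mice. In each case the other MI4KO mice lay at or near the flox range and 1 animal lay far above it. The highest log2 fold change of the list was that of Icam1, 0.58 (SE 0.50), which was -0.11 (SE 0.17) without MI4KO mouse 3. The lowest was that of Hp, the hemoglobin-binding acute-phase protein, at -0.63 (SE 0.47), and its values ran from 10.2 to 32.8 in flox mice and from 3.05 to 21.9 in MI4KO mice. Hp, which liver makes in abundance, was highest in flox mouse 1, whose liver markers are given next, and their part in its value was not tested.

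**Figure D5:**
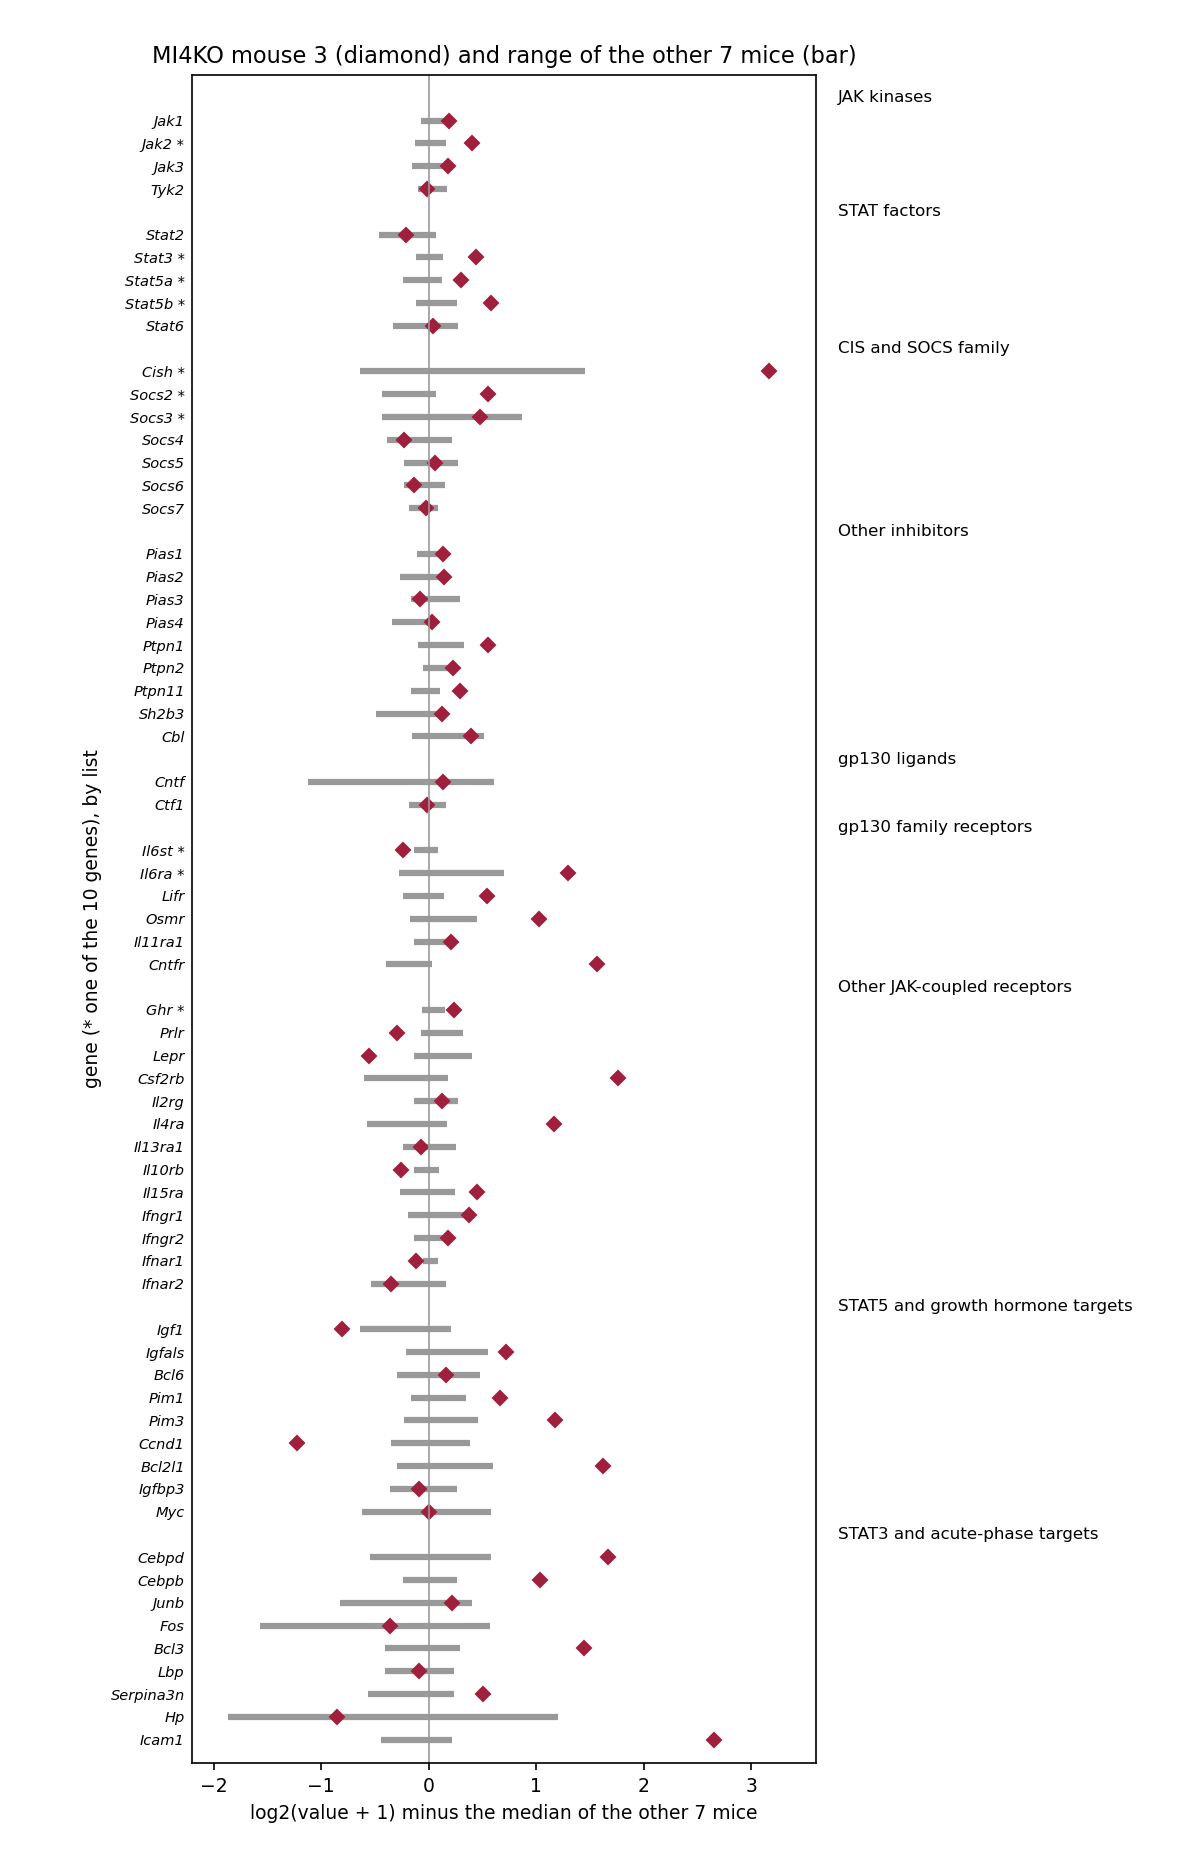
Log2(value + 1) minus the median of the other 7 mice, with MI4KO mouse 3 as a diamond and the range of the other 7 mice as a gray bar, for tested genes of each pathway list, where a gene of 2 lists is drawn once and an asterisk marks the 10 genes. The diamonds of Cish, Icam1, Csf2rb, Cebpd, Bcl2l1, Cntfr and Bcl3 lie more than 1 log2 unit beyond the bar, and those of the STAT and SOCS genes without an asterisk lie within it.

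Markers of other cell types were summed per mouse in the same way. In MI4KO mouse 3 the macrophage list, of which 5 of 6 genes had a row, summed to 38.0 against 26.4 to 35.6. The endothelial sum of this mouse, 358, fell between those of the others, 258 to 415, and so did its adipocyte sum, 17.6, in 10.7 to 47.2. Across groups, the endothelial sum was 338 to 415 in flox mice and 258 to 361 in MI4KO mice. MI4KO mouse 1 was the lowest, and the other MI4KO mice were at 347 to 361. None of the 6 endothelial genes had a positive log2 fold change, against 43.8% of all genes, and their median was -0.23. By limma 2 of them had an unadjusted p under 0.05, against 3.36% of all genes, and none was past the limits. In flox mouse 1 the liver markers had a sum of 130.8 against 1.31 to 3.26 elsewhere, and all 8 genes were highest in it. Slow fiber markers summed to 27817 to 34184 in flox mice and 25467 to 31430 in MI4KO mice, and fast fiber markers to 40755 to 44904 and 35930 to 45641. Slow and fast fiber markers were thus abundant in every mouse, and the fast sum was the larger in each. The lists hold 6 slow and 8 fast genes, so their sums do not give shares of fibers. Myh4, a myosin of fast glycolytic fibers, differed widely between mice of both groups. It was at 1807, 2496, 34.5 and 35.4 in flox mice and 278, 831, 55.8 and 2174 in MI4KO mice. The part of these signals, and of the glucocorticoid-responsive and neutrophil genes, in the values of Cish, Il6ra and the other genes in MI4KO mouse 3 was not tested.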

How the data were processed

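SOL RNA of 4 MI4KO and 4 flox mice was measured with 1 stranded poly(A) library per mouse (Kapa Stranded mRNA, HiSeq3000, single reads of 50 bases). Per the paper and the submitters' processing notes, the authors used bcl2fastq 2.17, mapped reads to UCSC transcripts (mm10) with Bowtie2 2.1.0, estimated gene levels with RSEM 1.2.15 and scaled them by TMM. How RSEM treated strand is not given in the sources used here. As deposited, the signal of a gene in a mouse is TMM-normalized CPM. The authors also deposited a fold-change score, a p-value and an FDR for each gene from their own edgeR comparison, and these 3 columns were not used.

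Dividing by the value of 1 read in each mouse turned 100% of the values above 0 into whole reads within 0.01. Depth was 13417512 to 16384565 reads per mouse, and intervals and floors (3 reads) cover counting error only. No read was found for 6086 of 24054 genes. Chi-square per degree of freedom between 2 mice was 6.06 to 52.4 across genes, so none was taken as a duplicate. Nothing in the labels gives litters or extraction batches, so the spread is that between these mice.

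The groups of the labels were compared with limma 3.58.1 (R 4.3.3) on log2(value + 1), with the trend option, for the 11865 genes that reached a value of 1 in 4 or more mice, and the code was tested on simulated data. Alternatives were a pseudocount of 0.25, no filter, other scalings, no trend, robust estimation and the range of animal numbers as a covariate. Further alternatives were the quasi-likelihood test of edgeR 4.0.16 and DESeq2 1.42.0, both on recovered reads, and each mouse left out. The 10 genes, the pathway and marker lists and these tests were chosen with earlier results of these data known. From the pathway lists, genes are named that were past the limits, did not overlap between groups, lay more than 1 log2 unit from every other mouse in MI4KO mouse 3, or had the highest or lowest log2 fold change of their list, and 5 genes most like Cish and Socs3 are named. Bcl6, Jak3, Il4ra, Ifngr1, Pias4, Igf1, Ptpn11 as called by edgeR and DESeq2, Myh4, Cxcr2, S100a8 and S100a9 were named after their values were seen. Positions and exon lengths are from GENCODE M21 (GRCm38), matched by symbol, and promoter windows from RefSeq (GRCm38.p6). The GAS samples were not analysed here. Values of 1 gene of the pathway lists are not reported here.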

Additional observations from a re-analysis of the deposited data

Results flagged for a closer look

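Values of the 10 genes, of some of the pathway genes named above and of the summed marker lists were examined within each group. In a group of 4 mice, a mouse far from the other 3 was sought. Its gap to the nearest other mouse, divided by the whole range of log2(value + 1) in the group, was set against Dixon's 95% critical value. Of 54 groups examined, 8 passed. Chance passes about 1 in 20 groups that were not chosen for their values, but the pathway genes were named in part because MI4KO mouse 3 lay far from the others or because groups separated without it, so that rate does not apply to them. In MI4KO mice these were Bcl3 (0.905), Cntfr (0.851), Bcl2l1 (0.848) and Cebpd (0.845), each with MI4KO mouse 3 highest, and the summed endothelial markers (0.879), with MI4KO mouse 1 lowest. In flox mice they were the summed liver markers (0.909) and Pias4 (0.854), both with flox mouse 1 highest, and the summed fast fiber markers (0.853), with flox mouse 3 highest. Pias4 is named here after its values were seen, and its flox values spanned only 19.2 to 20.01. Cish in MI4KO mice did not pass, since MI4KO mouse 4 also lay above the other MI4KO mice. None of the 10 genes passed in either group.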

How the results depend on the processing

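No paired analysis was possible because the groups share no replicate numbers in the labels. The 10 genes were selected on these values, so counts of them past the limits are a description and no test. These counts were 0 by limma under the main settings and 1, Socs3, by DESeq2, which gave no p for Cish. With each mouse left out they were 0 to 1 (1 without MI4KO mouse 1, where 29 of all genes were past the limits). For the 55 pathway genes they were 0, 1 by DESeq2 and 0 to 2 with each mouse left out. Over all 11865 genes tested the count was 26. It became 60 with a pseudocount of 0.25, 13 with robust estimation, 65 by edgeR and 51 by DESeq2. With each mouse left out it was 19 to 58, 58 without MI4KO mouse 4. The count with an adjusted p under 0.05 was 0, and 0 to 1 with each mouse left out, 1 without MI4KO mouse 2. The cause of these shifts was not tested. Leaving out MI4KO mouse 3 changed the sign of the log2 fold change of Cish, Socs2, Stat3, Stat5b, Ghr, Il6st and Il6ra, none of which was past the limits. The sign of Socs3 and Jak2 was positive in all 17 other settings. Depth limits the precision of each Socs3 value, with 30 to 106 reads. Its spread between mice still exceeds the counting intervals, which were 1.47 to 3.11 in MI4KO mouse 1 and 5.61 to 8.29 in MI4KO mouse 2. For Cish the spread between mice also exceeds the counting intervals, and 4 mice in each group limit both genes.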
